A study of Mus musculus with 9 samples.

Results

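The epithelial transcription factors and splicing regulators of mouse cholangiocarcinoma cells were read as 10 genes, namely the grainyhead-like factors Grhl1, Grhl2 and Grhl3, the zinc finger repressors Ovol1 and Ovol2, the splicing regulators Esrp1 and Esrp2, the ETS factors Elf3 and Ehf, and the Krüppel-like factor Klf5. They were chosen by symbol for their known roles in epithelial cells, and all 10 were present among the 55276 gene symbols of the count table. Of these genes, 8 passed the filter on low counts and were among the 17672 genes tested, while Ovol1 and Ovol2 did not pass.

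The cells were PPTR cells, a line from liver cancer organoids of mice with Prom1CreERT2, floxed alleles and the reporter Rosa-ZsGreen. All 9 libraries therefore share these alleles, and all came from cells grown without other cell types in medium with fetal bovine serum. The control cells, Vcam1ctrl (genotype WT in the labels), had 3 libraries, and the knockout clones Vcam1KO1 and Vcam1KO2, each grown from 1 single cell after Cas9 cutting in Vcam1, had 3 libraries each. The libraries of a condition came from different passages of 1 culture or clone. Where single conditions are compared, p values thus measure the spread between passages and not between independent clones. Over both clones, the difference between the clones also counts as spread, and 6 libraries of 2 clones are treated as replicates. With 2 clones a difference from control cannot be told apart from a difference between single cells of the line.

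Grainyhead-like factors bind enhancers of junction and barrier genes and open them in epithelial cells, and OVOL factors repress genes of the mesenchymal state. ESRP proteins bind pre-mRNA and direct the use of epithelial exons, for example in Fgfr2 and Cd44. Elf3 and Ehf belong to an ETS branch found mostly in epithelia, and Klf5 is active in proliferating epithelial cells. In the liver some of these genes mark the bile duct epithelium more than the hepatocytes.

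RefSeq promoter windows of GRCm38.p6, from 250 bases before to 50 bases after a transcript start, were given for 4 of the 10 genes (Elf3, Grhl1, Grhl3 and Ovol2, with 5 windows in all). Printed are the bases before the annotated gene for the 3 windows that reach beyond it, while the other windows lie inside the gene. The letters CACCTG are the known recognition sequence of Zeb and Snai factors, which were among the genes read beside the 10 genes. Capitals mark CACCTG.
Elf3 (chr1:135258569-135258722, minus strand): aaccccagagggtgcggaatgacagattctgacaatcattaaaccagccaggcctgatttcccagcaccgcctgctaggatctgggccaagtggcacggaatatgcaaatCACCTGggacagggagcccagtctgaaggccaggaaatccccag
Grhl3 (chr4:135573631-135573882, minus strand): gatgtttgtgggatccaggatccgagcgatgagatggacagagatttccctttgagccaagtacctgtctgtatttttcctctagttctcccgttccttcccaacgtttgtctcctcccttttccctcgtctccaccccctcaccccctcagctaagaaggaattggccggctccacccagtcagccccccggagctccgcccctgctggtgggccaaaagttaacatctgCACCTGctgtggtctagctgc
Grhl1 (chr12:24572037-24572282, plus strand): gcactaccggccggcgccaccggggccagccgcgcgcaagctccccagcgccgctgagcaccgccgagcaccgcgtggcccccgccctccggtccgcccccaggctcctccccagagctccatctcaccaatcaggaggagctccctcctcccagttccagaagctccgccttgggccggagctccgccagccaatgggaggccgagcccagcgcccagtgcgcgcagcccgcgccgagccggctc
The letters CACCTG, searched on both strands, stood in the Elf3 window at -140 from the start and in the Grhl3 window at -19 and at 9, the last beyond the printed bases. They were in 20.2% of all 32851 windows of this length, so that a window with them is common. Neither the grainyhead letters AACNNGTT (4.2% of all windows) nor the letters CCGTTA, of OVOL factors, (2.76%) were found in any of the 5 windows. The shown Grhl1 window had a GC content of 75.3% and 35 CpG dinucleotides, against medians of 52.7% and 7 over all windows. These matches describe letters and carry no measurement of binding.

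Library totals lay between 53415907 and 125223073 counts. Levels are given in CPM, read counts scaled to the size of each library with TMM factors, and 3 counts in a library, taken as the limit of detection, came to between 0.0239 and 0.0554 CPM. Replicate 3 of Vcam1KO1 stood apart from the other libraries of its clone (chi-square per degree of freedom 268.86 and 318.12, against 40.77 between the other pair), and its summed level of 10 proliferation genes was 226 CPM, the lowest of the 9 libraries. Replicate 3 of Vcam1KO2 also stood apart in its clone (177.88 and 121.63, against 38.16). The pairs of Vcam1ctrl libraries lay between 97.83 and 184.76. Vcam1 itself was at 248, 220.5 and 329 CPM in Vcam1ctrl, at 98.8, 92.4 and 128 CPM in Vcam1KO1 and at 119, 99.4 and 83.0 CPM in Vcam1KO2, so that its transcript was lower in every clone library but not absent. The authors reported loss of Vcam1 expression in both clones by quantitative RT-PCR and by flow cytometry. Counts of RNA do not measure the protein. Of the genes that define bile duct cells, Krt19 was between 2129 and 2406 CPM and Epcam between 17.4 and 27.2 CPM in Vcam1ctrl, and in the clones they reached at most 0.226 and 0.0898 CPM, so that the clones lacked the markers of the labelled tumour type.

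**Figure D1:**
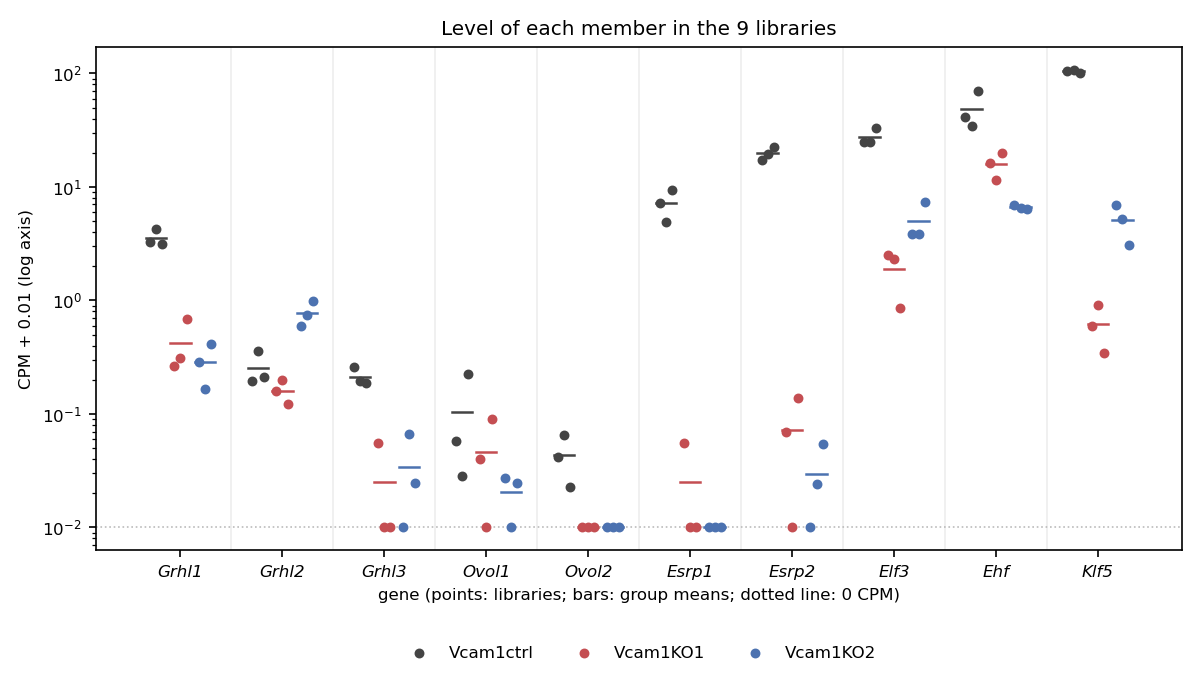
Level of the 10 genes in CPM plus 0.01, on a log axis, with 1 point per library and a bar at the mean of each condition (n = 3). Esrp1 and Esrp2 stand between 4.85 and 22.6 CPM in the control libraries and at or near 0 in every clone library, Klf5 is lower in Vcam1KO1 than in Vcam1KO2, and Grhl2 is highest in Vcam1KO2.

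When the 6 libraries of both clones were set against Vcam1ctrl, 7 of the 8 tested genes fell and 0 rose (0 also at an unadjusted p under 0.05 and by limma-voom and DESeq2), while 21.2% of all tested genes were lower, 21.7% higher and 43% different in either direction. Grhl1, Grhl3, Esrp1, Esrp2, Elf3, Ehf and Klf5 fell, and Grhl2 was the gene that did not pass the threshold. The median log2 fold change of the 8 genes was -3.33, against 0.07 over all tested genes. Grhl3, Esrp1 and Esrp2 reached the filter of 0.152 CPM in no clone library and passed it through the control libraries, so that the count describes these genes and is not a sample of all 10. Without Vcam1KO1 replicate 3 the count was again 7. In RNA of whole cultures, fewer cells that express a gene and less RNA per cell cannot be told apart.

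The splicing regulators had the largest fold differences of the group. Esrp1, which drives inclusion of epithelial exons, had 901, 263 and 748 counts in the Vcam1ctrl libraries (7.18, 4.85 and 9.46 CPM), 3, 0 and 0 counts in Vcam1KO1 and 0 counts in each Vcam1KO2 library. Every clone library was thus at or under the limit of detection, far below every control library. Summed over libraries and scaled by depth, Esrp1 was 555-fold lower in Vcam1KO1 than in control (exact 95% counting interval 190 to 2690, edgeR quasi-likelihood, Benjamini-Hochberg adjusted p = 5e-05). In Vcam1KO2 it was at least 155.5-fold lower, with the limit of 3 counts per library in place of 0 (edgeR quasi-likelihood, Benjamini-Hochberg adjusted p = 5e-05). No fold was given between the clones, which were both at the limit.

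Esrp2, the relative of Esrp1 with overlapping targets, had 2148, 1054 and 1783 counts in Vcam1ctrl (17.1, 19.45 and 22.55 CPM), 4, 0 and 8 counts in Vcam1KO1, and 0, 1 and 3 counts in Vcam1KO2. The control libraries lay close together, with a coefficient of variation of 13.8%, and no clone library came near them. Esrp2 fell by 8.43 on the log2 scale in Vcam1KO1 (standard error 0.69, edgeR quasi-likelihood, Benjamini-Hochberg adjusted p = 7e-06) and by 9.81 in Vcam1KO2 (standard error 0.77, edgeR quasi-likelihood, Benjamini-Hochberg adjusted p = 7.4e-06). As ratios of summed counts these were 362-fold (207 to 700) and 947-fold (370 to 3480), with intervals that cover counting error only. The log2 difference between the clones was 1.39, with a 95% interval from -1.12 to 3.90, and did not pass the threshold (edgeR quasi-likelihood, Benjamini-Hochberg adjusted p = 0.35).

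Among the grainyhead-like factors, Grhl1 was the most abundant in control cells. It stood at 3.24, 4.23 and 3.10 CPM in Vcam1ctrl, at 0.254, 0.303 and 0.670 CPM in Vcam1KO1 and at 0.274, 0.155 and 0.399 CPM in Vcam1KO2. The clone libraries did not overlap the control libraries, while the clones overlapped each other. Grhl1 kept 11.6% of its control mean in Vcam1KO1 (log2 fold change -3.11, standard error 0.45, edgeR quasi-likelihood, Benjamini-Hochberg adjusted p = 0.00026) and 7.84% in Vcam1KO2 (-3.67, standard error 0.47, edgeR quasi-likelihood, Benjamini-Hochberg adjusted p = 0.00015). Its difference between the clones was 0.55 on the log2 scale, with an interval from -0.48 to 1.58 (edgeR quasi-likelihood, Benjamini-Hochberg adjusted p = 0.37).

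Grhl2, the grainyhead-like factor best known for holding the epithelial state, went another way. It was low in control cells, at 0.183, 0.351 and 0.202 CPM (23, 19 and 16 counts), at 0.150, 0.188 and 0.112 CPM in Vcam1KO1 and at 0.583, 0.735 and 0.976 CPM in Vcam1KO2 (34, 52 and 66 counts). All Vcam1KO2 libraries lay above all others, and those of Vcam1KO1 overlapped the control. Grhl2 rose 3.12-fold in mean level in Vcam1KO2 (log2 fold change 1.67, standard error 0.38, edgeR quasi-likelihood, Benjamini-Hochberg adjusted p = 0.0046). In Vcam1KO1 the log2 fold change was -0.66, with an interval from -1.56 to 0.25, and did not pass (edgeR quasi-likelihood, Benjamini-Hochberg adjusted p = 0.19). The clones differed from each other by -2.32 (standard error 0.39, edgeR quasi-likelihood, Benjamini-Hochberg adjusted p = 0.0017). In edgeR's test against a 2-fold change the rise in Vcam1KO2 was not called (Benjamini-Hochberg adjusted p = 0.071).

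Grhl3, which acts mainly in barrier-forming epithelia, was low in control cells and near the limit of detection in the clones. Its counts were 31, 10 and 14 in Vcam1ctrl, 3, 0 and 0 in Vcam1KO1, and 0, 4 and 1 in Vcam1KO2. Each clone library held fewer counts than each control library. Scaled by depth, the counts were 15.96-fold lower in Vcam1KO1 (5.18 to 79.8, edgeR quasi-likelihood, Benjamini-Hochberg adjusted p = 0.0073) and 8.36-fold lower in Vcam1KO2 (3.37 to 26.8, edgeR quasi-likelihood, Benjamini-Hochberg adjusted p = 0.019). The call in Vcam1KO2 was lost without Vcam1ctrl replicate 1 (0.063) or without Vcam1KO2 replicate 1 (0.064) or 3 (0.072), as adjusted p values of the same test. It was also lost in edgeR's test against a 2-fold change (Benjamini-Hochberg adjusted p = 0.073).

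The OVOL factors were too low to be tested. Ovol1 had 6, 1 and 17 counts in Vcam1ctrl, 2, 0 and 5 in Vcam1KO1, and 1, 0 and 1 in Vcam1KO2. Most of its control counts came from 1 library, and the Vcam1KO1 libraries overlapped the control. Over the 6 clone libraries the counts were 4.35-fold lower than in control, with an exact counting interval from 1.95 to 10.6 that leaves out the spread between libraries. Ovol2 had 4, 3 and 1 counts in Vcam1ctrl and 0 in all 6 clone libraries, which at this depth does not show whether it differed. In a fit with no filter on low counts, Ovol2 was lower in the 6 clone libraries (edgeR quasi-likelihood, Benjamini-Hochberg adjusted p = 0.035) and Ovol1 was not called (edgeR quasi-likelihood, Benjamini-Hochberg adjusted p = 0.17).

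Elf3 and Ehf, the epithelial ETS factors, both fell but in unequal measure in the clones. Elf3 was at 24.9, 24.7 and 33.1 CPM in Vcam1ctrl, at 2.50, 2.30 and 0.846 CPM in Vcam1KO1 and at 3.84, 3.80 and 7.29 CPM in Vcam1KO2. The conditions did not overlap, with Vcam1KO1 lowest. Its mean was 6.82% of control in Vcam1KO1 (log2 fold change -3.87, standard error 0.43, edgeR quasi-likelihood, Benjamini-Hochberg adjusted p = 5.1e-05) and 18.1% in Vcam1KO2 (-2.47, standard error 0.40, edgeR quasi-likelihood, Benjamini-Hochberg adjusted p = 0.00071). The clones differed by -1.40 (standard error 0.40, edgeR quasi-likelihood, Benjamini-Hochberg adjusted p = 0.021). It was -1.05 without Vcam1KO2 replicate 3, the highest clone library, and did not pass (adjusted p = 0.077 by the same test in edgeR), and it was also -1.05 without Vcam1KO1 replicate 3, the lowest, and passed (adjusted p = 0.028).

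For Ehf the order of the clones was the opposite. Its levels were 41.0, 34.6 and 70.3 CPM in Vcam1ctrl, 16.2, 11.5 and 20.05 CPM in Vcam1KO1, and 6.94, 6.55 and 6.43 CPM in Vcam1KO2. Vcam1KO2 was lowest and the most even of the conditions, and none of the ranges overlapped. Ehf was at 32.7% of its control mean in Vcam1KO1 (log2 fold change -1.62, standard error 0.28, edgeR quasi-likelihood, Benjamini-Hochberg adjusted p = 0.00081) and at 13.6% in Vcam1KO2 (-2.87, standard error 0.29, edgeR quasi-likelihood, Benjamini-Hochberg adjusted p = 3.7e-05). Vcam1KO1 stood above Vcam1KO2 by 1.26 on the log2 scale (standard error 0.28, edgeR quasi-likelihood, Benjamini-Hochberg adjusted p = 0.0068), or by 1.06 without Vcam1KO1 replicate 3 (adjusted p = 0.02 by the same test in edgeR).

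Klf5, a zinc finger factor of proliferating epithelia, was the most even of these genes in control cells and had the largest difference between the clones among those that passed the test. It stood at 104, 107 and 100.6 CPM in Vcam1ctrl, at 0.584, 0.897 and 0.335 CPM in Vcam1KO1 and at 6.87, 5.22 and 3.08 CPM in Vcam1KO2. The conditions were far apart, with a coefficient of variation of 3.24% in control. Klf5 kept 0.582% of its control mean in Vcam1KO1 (log2 fold change -7.39, standard error 0.41, edgeR quasi-likelihood, Benjamini-Hochberg adjusted p = 7.5e-07) and 4.86% in Vcam1KO2 (-4.36, standard error 0.35, edgeR quasi-likelihood, Benjamini-Hochberg adjusted p = 8.4e-06). The difference between the clones was -3.02 (standard error 0.36, edgeR quasi-likelihood, Benjamini-Hochberg adjusted p = 0.00027), and -2.74 without Vcam1KO1 replicate 3 (adjusted p = 0.00049 by the same test in edgeR).

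**Figure D2:**
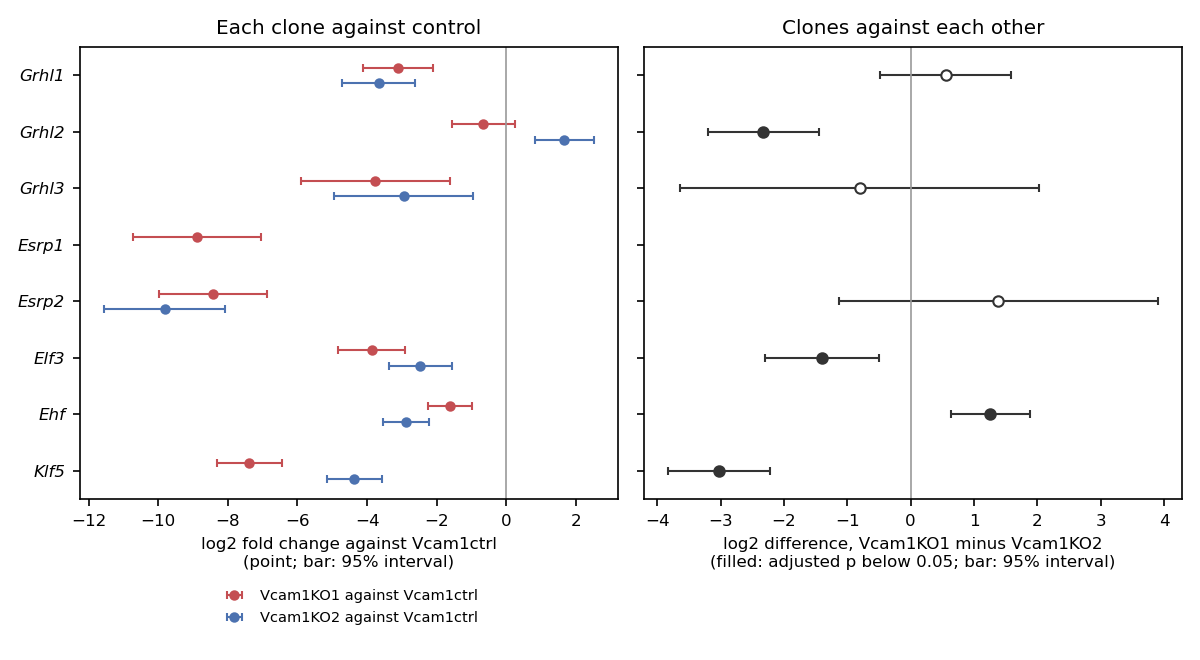
Left, log2 fold change of the 8 tested genes in each clone against Vcam1ctrl, and right, the log2 difference of Vcam1KO1 from Vcam1KO2, with 95% intervals from edgeR. Esrp1 in Vcam1KO2 and between the clones is left out because Vcam1KO2 had 0 counts. Grhl2 lies to the right of 0 in Vcam1KO2 at 1.67, and Grhl2, Elf3, Ehf and Klf5 are the filled points on the right.

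Read clone by clone, 7 of the 8 tested genes fell in Vcam1KO1, where 30% of all tested genes were lower, and 7 fell and 1 rose in Vcam1KO2, where 26.1% were lower and 25.3% higher. The same 7 genes were lower in both clones, as were 19.4% of all tested genes, and both comparisons used the same 3 control libraries. Between the clones, 1 gene (Ehf) was higher and 3 (Grhl2, Elf3 and Klf5) were lower in Vcam1KO1, where 20.2% and 18.5% of all tested genes were. These 4 of 8 genes stand beside 38.7% of all tested genes that differed between the clones in either direction. Against a 2-fold change, Grhl2 and Klf5 were the 2 genes still called.

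Levels of different genes were compared per kb of transcript, with the median length of the coding transcripts of GENCODE vM21. On this scale the 10 genes summed to 105 CPM per kb in Vcam1ctrl, 16.9 in Vcam1KO1 and 11.2 in Vcam1KO2. In Vcam1ctrl the highest was Ehf (47.4 ± 18.5 CPM per kb, SD, n = 3), followed by Klf5 (33.5 ± 1.09), Elf3 (13.8 ± 2.39) and Esrp2 (7.36 ± 1.02). Ehf and Klf5 did not differ beyond their spread, whereas the steps from Klf5 to Elf3 and from Elf3 to Esrp2 were larger than the spread of either gene. The order of Ehf and Klf5 rests on the lengths used, 1.03 kb and 3.10 kb. In CPM, Klf5 was the higher of these in Vcam1ctrl, with a mean of 104 against 48.7 for Ehf. Esrp1 (1.97) and Grhl1 (1.08) followed, and Grhl2, Grhl3, Ovol1 and Ovol2 were each under 0.2 CPM per kb.

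In Vcam1KO1, Ehf made up 91.6% of this sum and Elf3 5.57%. In Vcam1KO2, Ehf made up 57.4%, Elf3 22.1%, Klf5 14.5% and Grhl2 5.01%. On this scale, which depends on the lengths used, what remained of the group was mostly Ehf in Vcam1KO1. In Vcam1KO2 it was shared among Ehf, Elf3 and Klf5.

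**Figure D3:**
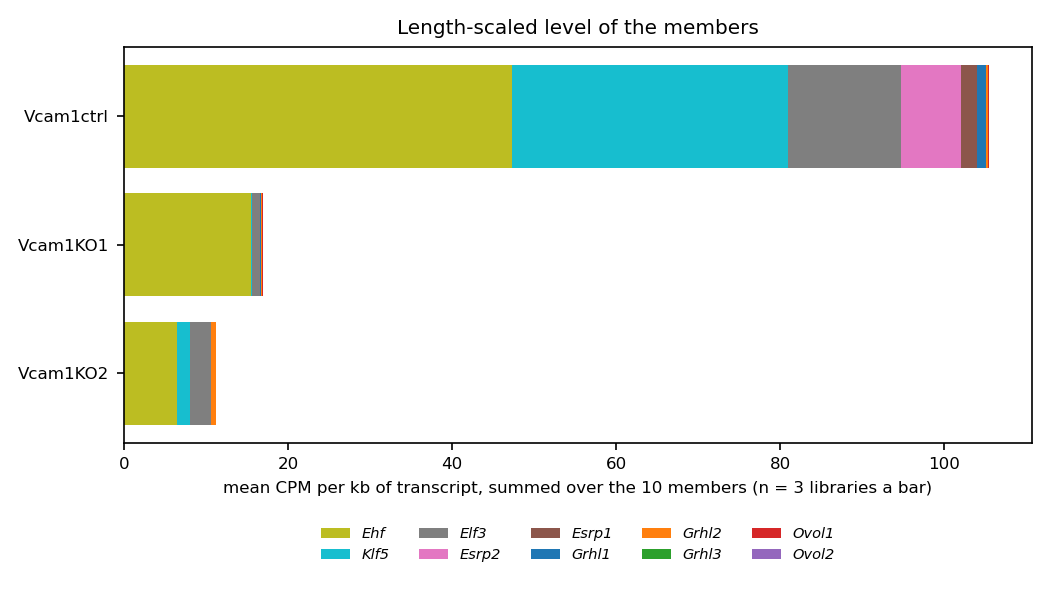
Mean CPM per kb of transcript of the 10 genes, stacked, for each condition (n = 3 libraries a bar). The sum is 105 in Vcam1ctrl, 16.9 in Vcam1KO1 and 11.2 in Vcam1KO2, and Ehf is the largest piece in each bar.

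The 10 genes lie apart in the genome, on GRCm38 with GENCODE vM21. Grhl3 (chromosome 4, 135541888 to 135573630, minus strand) and Esrp1 (chromosome 4, 11331933 to 11386783, minus strand) share a chromosome, as do Ovol2 (chromosome 2, 144305175 to 144332146, minus strand) and Ehf (chromosome 2, 103263433 to 103303278, minus strand). Grhl1 is on chromosome 12 (24572283 to 24617391, plus strand) and Grhl2 on chromosome 15 (37233036 to 37363569, plus strand). Elf3 is on chromosome 1 (135253575 to 135258568, minus strand), Klf5 on chromosome 14 (99298691 to 99315036, plus strand), Esrp2 on chromosome 8 (106130319 to 106136974, minus strand) and Ovol1 on chromosome 19 (5549136 to 5560646, minus strand). No annotated gene overlaps any of them on the same strand, and the libraries were read with their strand.

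The genes whose log2 CPM ran most like those of each member over the 9 libraries are given as a description, since all 9 points share the split between control and clones. For Esrp1 they included Tox3 and Prox1 (Pearson's r of 0.9992 and 0.9991), and 5.77% of all tested genes had an r above 0.95 with it. For Esrp2 they were Iyd, Prr15l and Fxyd2, for Klf5 Gprc5a, Cdh6 and Taf4b, for Elf3 Pak4, Ppl and Nrg2, and for Ehf Ikbkb, Frat1 and Acvr1b. Grhl1 ran most like Mrc1, Mapk13 and Sdcbp2, and the genes most like Grhl2 included Mecr and Glrx5, with 66 tested genes above 0.95. For Grhl3, whose counts were low, they included Gm9512 and Gm16409.

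The nearest relatives of these genes were read in the same way. Of 25 genes of the CP2, OVO, ETS and KLF families, 20 were tested. In the 6 clone libraries 5 fell and 1 rose, with a median log2 fold change of -0.46. Over all tested genes 21.2% were lower and 21.7% higher in this comparison, and these shares stand beside the lists below too. Among 16 other KLF genes, 13 were tested and 4 fell, with values of -5.86 for Klf12, -4.18 for Klf8, -2.44 for Klf4 and -1.56 for Klf15. The call of Klf15 was lost without Vcam1ctrl replicate 1 or 2, without any single Vcam1KO1 library or without Vcam1KO2 replicate 3 (edgeR adjusted p from 0.051 to 0.13). Klf12, a repressor, went from 2.93, 3.30 and 4.39 CPM in Vcam1ctrl to 0.0300, 0.104 and 0.0160 CPM in Vcam1KO1 and 0.0514, 0.0424 and 0.103 CPM in Vcam1KO2, with no overlap. Klf4, a factor of differentiating epithelia, was at 423, 115 and 424 CPM in Vcam1ctrl, at 15.1, 37.0 and 73.7 CPM in Vcam1KO1 and at 119, 79.9 and 29.6 CPM in Vcam1KO2, so that 1 Vcam1KO2 library lay above the lowest control library.

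Among the other ETS genes, Elf1, Elf2 and Elf4, which are expressed in many tissues, did not pass the threshold over both clones, and Elf5, a factor of secretory epithelia, rose from a level near 0. Elf5 had 2, 0 and 2 counts in Vcam1ctrl, 18, 14 and 13 in Vcam1KO1, and 5, 8 and 19 in Vcam1KO2 (log2 fold change 3.48, edgeR quasi-likelihood, Benjamini-Hochberg adjusted p = 0.0033). Its highest clone library held 0.281 CPM, far under the control level of Elf3 or Ehf. Elf4 was at 50.1, 55.6 and 50.6 CPM in Vcam1ctrl and at 29.9, 28.7 and 25.1 CPM in Vcam1KO1, where it fell (-0.90, edgeR quasi-likelihood, Benjamini-Hochberg adjusted p = 0.00013), and at 51.5, 50.6 and 61.0 CPM in Vcam1KO2. Of the CP2 genes, to which the grainyhead-like factors are related, Tfcp2l1 fell by 1.44 on the log2 scale (edgeR quasi-likelihood, Benjamini-Hochberg adjusted p = 0.0021), and Tfcp2 and Ubp1 were not called over both clones, although Ubp1 was without Vcam1KO2 replicate 3 (0.44, edgeR adjusted p = 0.043). Ovol3 and Spdef were not tested.

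**Figure D4:**
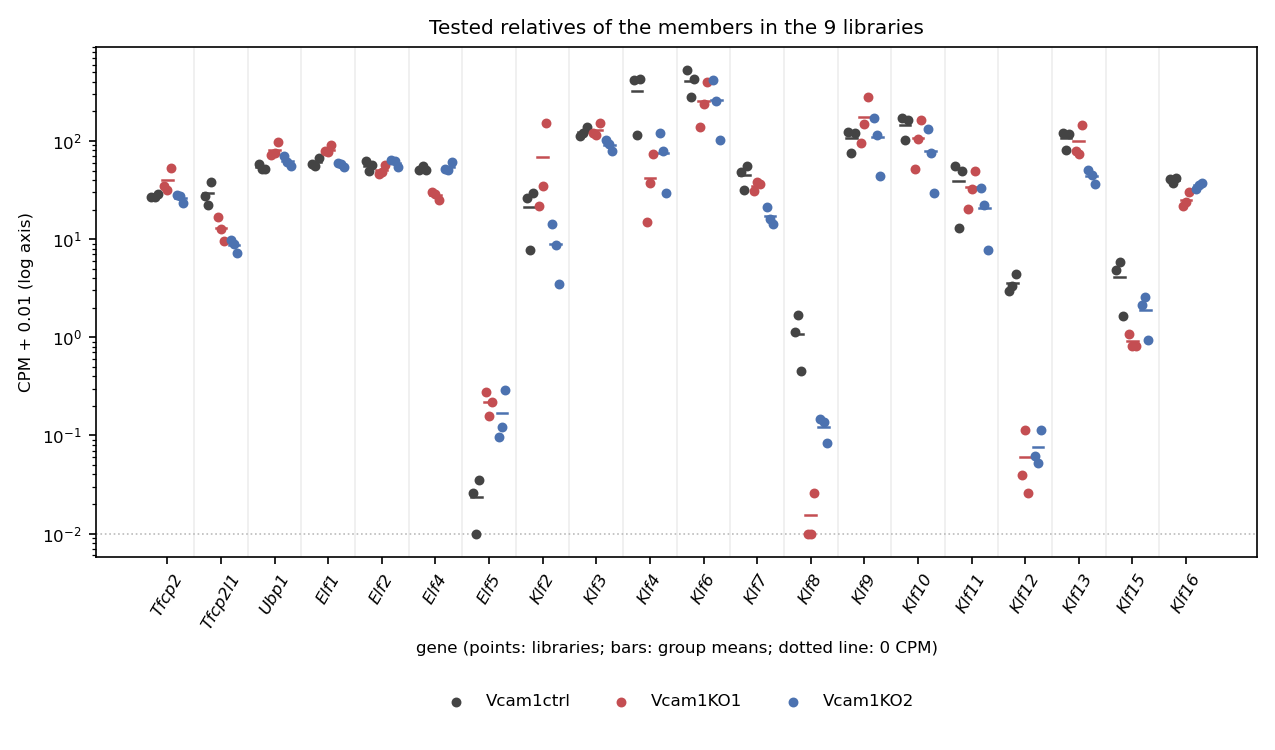
Level of the 20 tested relatives in CPM plus 0.01, on a log axis, with 1 point per library and a bar at the mean of each condition (n = 3). Klf8 and Klf12 lie well below control in both clones, Elf5 lies above control from a level near 0, and the points of most other KLF genes overlap between conditions.

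The SNAI, ZEB and TWIST factors, which repress epithelial genes or drive the mesenchymal state, did not move one way. Of 7 genes, all tested, 4 rose and 2 fell over both clones. Zeb1, which represses junction genes such as Cdh1, rose from 32.8, 29.9 and 28.6 CPM in Vcam1ctrl to 75.9, 71.3 and 85.1 CPM in Vcam1KO1 and 72.8, 65.2 and 62.5 CPM in Vcam1KO2. Its clone libraries lay above all control libraries and the clones did not pass the threshold between them (edgeR quasi-likelihood, Benjamini-Hochberg adjusted p = 0.15). Twist2 and Zeb2 rose with log2 fold changes of 2.90 and 1.16, and Snai1 rose with 1.70, a call that was lost without Vcam1ctrl replicate 1 or 3 (adjusted p = 0.07 and 0.064 by the same test in edgeR). Snai3 and Twist1 fell to at most 2 counts and to between 0 and 0.21 CPM, and Snai2, at 0.03 over both clones, was higher in Vcam1KO1 than in Vcam1KO2 (1.70, edgeR quasi-likelihood, Benjamini-Hochberg adjusted p = 0.0065).

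Other splicing regulators were read beside Esrp1 and Esrp2. Of 26 genes, 24 were tested, 6 rose and 8 fell over both clones, and their median log2 fold change was 0.18. Of all tested genes, 21.7% were higher and 21.2% lower. Rbm47, an RNA-binding protein of epithelial cells, fell from 59.1, 77.1 and 71.8 CPM in Vcam1ctrl to 4.69, 6.28 and 3.69 CPM in Vcam1KO1 and 11.7, 11.8 and 15.9 CPM in Vcam1KO2. Like Elf3 and Klf5 it was lowest in Vcam1KO1, without overlap. The neuronal regulators Rbfox1, Nova2 and Nova1, all low in control, also fell (-6.84, -3.47 and -2.18), whereas Mbnl3, Celf2, Khdrbs3 and Tia1 rose (3.21, 2.31, 2.01 and 1.29). The calls of Mbnl3 and of Tia1 were lost without Vcam1ctrl replicate 3 (adjusted p = 0.051 and 0.072 by edgeR's quasi-likelihood test), and that of Tia1 also without replicate 1 (0.067) or 2 (0.053).

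Genes known for exons that ESRP proteins regulate were read as gene totals, since the table holds no exons or isoforms. Of 8 genes, all tested, 2 rose over both clones (Enah, 2.06, and Arhgef11, 0.61) and 1 fell (Slk, -0.88). Of all tested genes, 43% differed in either direction. Over both clones Fgfr2 was not called but was higher under DESeq2 (adjusted p = 0.029) and as the average of the clone contrasts (0.01). Cd44 was likewise not called but was lower under limma-voom (adjusted p = 0.049), DESeq2 (0.026), upper-quartile normalization (0.047) and the average of the clone contrasts (4.3e-05). Fgfr2, the textbook ESRP target, was named after its values were seen. It stood at 19.0, 8.47 and 28.8 CPM in Vcam1ctrl, at 115, 120 and 249 CPM in Vcam1KO1 and at 17.6, 16.5 and 13.2 CPM in Vcam1KO2, so that Vcam1KO1 lay above all other libraries and Vcam1KO2 overlapped the control. The clones differed by 3.36 on the log2 scale (edgeR quasi-likelihood, Benjamini-Hochberg adjusted p = 0.00057). Cd44, also named after its values were seen, fell in both clones (-2.57 in Vcam1KO1 and -0.72 in Vcam1KO2, edgeR quasi-likelihood, Benjamini-Hochberg adjusted p = 1.3e-05 and 0.021) and was lower in Vcam1KO1 (-1.86, edgeR quasi-likelihood, Benjamini-Hochberg adjusted p = 0.0003). Its call in Vcam1KO2 was lost without Vcam1ctrl replicate 1 or 3 or without any single Vcam1KO2 library (edgeR adjusted p from 0.052 to 0.078).

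Epithelial structure genes that grainyhead-like factors and their partners are known to act on, such as keratins, claudins and desmosome genes, were lower almost throughout. Of 26 genes, 21 were tested, 20 fell and 0 rose over both clones (0 also at an unadjusted p under 0.05 and by limma-voom and DESeq2), with a median log2 fold change of -9.14. Krt18, Krt19 and Krt8, keratins of simple and ductal epithelia, had the largest decreases (-16.90, -14.40 and -14.30), followed by the tight junction gene Cldn3 (-14.28). In the clone libraries Krt8 had 5 to 31 counts, Krt19 1 to 16, Krt18 0 to 7 and Cldn3 0 to 1. Rab25 was the tested gene that did not pass (0.62, edgeR quasi-likelihood, Benjamini-Hochberg adjusted p = 0.36). In this list too, many genes passed the filter through the control libraries.

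Other transcription factors of epithelia were split. Of 16 genes, 14 were tested, and 7 fell and 3 rose over both clones, with a median log2 fold change of -1.33. The liver factor Hnf4a had 0 counts in all 6 clone libraries, against 207 to 264 CPM in Vcam1ctrl, and Cdx2 and Foxa3 fell to at most 0.0104 and 0.0685 CPM. Trp63, a factor of basal epithelia, rose from 0.502, 0.166 and 0.228 CPM in Vcam1ctrl to 12.6, 14.4 and 10.4 CPM in Vcam1KO1 and 5.89, 4.99 and 2.20 CPM in Vcam1KO2, without overlap (log2 fold change 4.78, edgeR quasi-likelihood, Benjamini-Hochberg adjusted p = 0.0008). Foxa1, an endoderm factor, rose with 4.14 (edgeR quasi-likelihood, Benjamini-Hochberg adjusted p = 3.4e-06) and Barx2 with 0.82 (edgeR quasi-likelihood, Benjamini-Hochberg adjusted p = 0.027), a call that was lost with no filter on low counts (0.089) and without Vcam1ctrl replicate 1 or 2, Vcam1KO1 replicate 1 or 2 or Vcam1KO2 replicate 1 (from 0.051 to 0.12). Foxa1 rose while its relative Foxa3 fell.

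**Figure D5:**
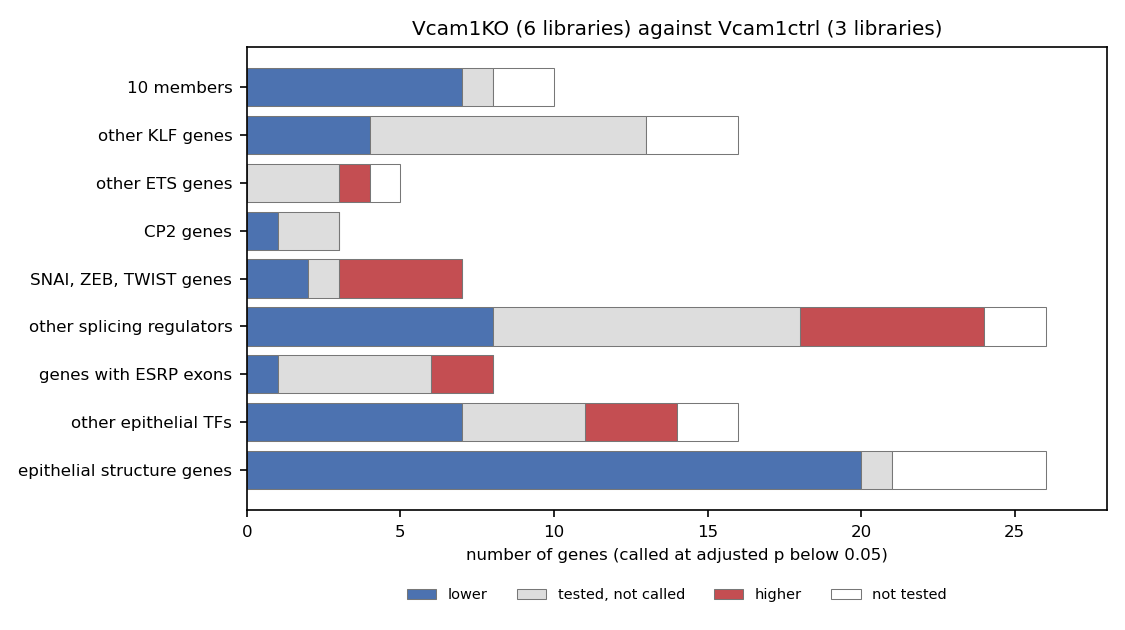
Number of genes in each list that were lower, higher, not called or not tested in the 6 clone libraries against 3 Vcam1ctrl libraries, by edgeR at an adjusted p below 0.05. The 10 genes (7 lower) and the epithelial structure genes (20 lower) have 0 higher, and the SNAI, ZEB and TWIST genes have 4 higher and 2 lower.

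Markers of other cell types moved with the same contrast. The summed level of 13 fibroblast genes was between 431 and 837 CPM in Vcam1ctrl, between 12560 and 15970 CPM in Vcam1KO1 and between 6770 and 9111 CPM in Vcam1KO2, and 7 of 9 tested genes were higher over both clones, with Lrat at or under 3 counts in every library and Lum at 0 in Vcam1ctrl. Of 10 hepatocyte genes, 6 were tested and all 6 fell, from summed levels between 425 and 752 CPM to between 1.69 and 3.08 CPM in Vcam1KO1 and between 0.414 and 0.703 CPM in Vcam1KO2, with Cps1, Cyp2e1 and Tat at or under 3 counts in every Vcam1ctrl library. Among the tested genes, Serpina1a and Fgb were at or under 3 counts in every clone library. They passed the filter through the control libraries, so that they could be called lower but not higher. Of 10 biliary genes, 6 fell and 2 rose, and their sum was between 5172 and 6400 CPM in Vcam1ctrl and between 7639 and 11090 CPM in the clones, where Spp1 alone held between 7459 and 10800 CPM. The summed haematopoietic and endothelial markers stayed between 2.43 and 20.8 CPM in all libraries. The part of any of these in the levels of the 10 genes was not tested.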

How the data were processed

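Messenger RNA of 9 cultures of PPTR cells was read by stranded, paired-end sequencing. The authors pseudoaligned the reads with kallisto 0.46.1 to mouse transcripts (GRCm38, named mm10 in the submitters' processing notes) and deposited estimated counts per gene symbol, without normalization. How transcripts were summed to genes is not given in the sources used here. The deposited values were whole numbers (0 were not), 0 columns were left out, and each library was placed in its condition by its label. Replicate numbers within a condition follow the order of the labels.

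In edgeR 4.0.16 under R 4.3.3, low genes were removed by filterByExpr (minimum count 10) and library sizes were scaled by TMM factors. The 6 libraries of both clones were compared with 3 control libraries in a fit with 2 groups, and each clone with control, and the clones with each other, in a fit with 3 groups over 9 libraries. Unless another method is named, adjusted p values come from the quasi-likelihood F test of edgeR. They were corrected by Benjamini-Hochberg over all genes tested in the fit, 17672 in the main fits, with a threshold of 0.05. A gene is said to have risen or fallen where it passed. Values against a 2-fold change come from edgeR's separate test for a change larger than that. Standard errors are the log2 fold change divided by the square root of F. Library totals of 53415907 to 125223073 counts set the limit of detection, taken as 3 counts per library, and ratios of low counts carry exact 95% intervals for counting error alone. Log2 levels used a prior count of 2.

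The members, the lists of related genes and the tests were chosen with earlier results of these data known. Named were the 10 genes, Vcam1, all SNAI, ZEB, TWIST, CP2, OVO and ETS relatives, and from each other list up to 4 called genes per direction with the largest change over both clones, and the 3 genes with the highest correlation to each tested member. A few names under this rule, and some of the shared alleles, are left unreported. The results were recomputed with limma-voom (limma 3.58.1), DESeq2 1.42.0, upper-quartile normalization, no filter, a mean of at least 1 CPM, other fits of the same libraries, a 2-fold test and leaving out each library. The scripts were tested on simulated data. Gene positions and lengths came from GENCODE vM21 and promoter sequences from RefSeq (GRCm38.p6). Figures were drawn with matplotlib 3.10.9 under python 3.11.15.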

Additional observations from a re-analysis of the deposited data

Results flagged for a closer look

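For 4 of the 8 tested genes the effect differed between the clones by a test of the difference itself (edgeR quasi-likelihood, Benjamini-Hochberg, Vcam1KO1 minus Vcam1KO2). The log2 difference was -3.02 for Klf5, -2.32 for Grhl2, -1.40 for Elf3 and 1.26 for Ehf. Of all tested genes, 38.7% differed between the clones.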

How the results depend on the processing

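Under limma-voom, DESeq2 and upper-quartile normalization 7 of the 10 genes were called over both clones, 7 in Vcam1KO1, 8 in Vcam1KO2 and 4 between the clones, as reported. With a mean of at least 1 CPM, which left Grhl2 and Grhl3 untested, the counts were 6, 6, 6 and 3, and with no filter Ovol2 was also called over both clones (8). With 1 library left out in turn it was 7 to 7 over both clones, 7 to 7 in Vcam1KO1, 7 to 8 in Vcam1KO2 and 3 to 4 between the clones. Against a 2-fold change, 2 genes instead of 4 were called between the clones, and over all genes 2973 instead of 7591 were called over both clones, 4680 instead of 10586 in Vcam1KO1, 3712 instead of 9087 in Vcam1KO2 and 1782 instead of 6834 between the clones, since that test asks for more. Of 126 member values recomputed per comparison, 126 kept their direction and side of the threshold over both clones, 126 in Vcam1KO1, 121 in Vcam1KO2 and 122 between the clones.

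Among the values recomputed, sign changes were seen in values that did not pass the threshold. Leaving out 1 library in turn, the difference of Grhl3 between the clones ran from -4.04 to 0.68, that of Twist2 from -0.081 to 0.11, Elf2 over both clones from -0.15 to 0.047 and in Vcam1KO2 from -0.016 to 0.17, Elf4 in Vcam1KO2 from -0.044 to 0.11, Fgfr2 in Vcam1KO2 from -0.63 to 0.19 and Snai2 over both clones from -0.32 to 0.51. Snai2 was also -0.0064 with DESeq2 and -0.20 as the average of the clone contrasts. The cause of these changes was not tested. Grhl3, Ovol1 and Ovol2 had at most 31 counts in any library, and the depth limits what can be said of them.

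No paired analysis was possible because the labels and columns carry no replicate numbers that are shared between conditions.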
